A study of Mus musculus with 18 samples.

Results

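RNase-resistant peaks that lay in the 3′ UTRs of protein-coding genes were examined in liver RNA of mice with and without the editing enzyme ADAR1. A peak was taken when it came from 1 of the 6 RNase-only libraries, touched the 3′ UTR of a protein_coding transcript of GENCODE M21 on its own strand by at least 1 bp, and touched no 5′ UTR. This gave 8006 of the 30045 RNase-only peaks (26.6%), out of 82353 peaks in all 18 libraries. Both groups of mice lacked MAVS, the adaptor through which MDA5 signals. Liver RNA came from animals aged 8 to 9 days that were Adar-/-;Mavs-/- or Mavs-/-, the latter being called wild-type in the sample titles. Each genotype had 3 replicates of 3 fractions, which were RNA digested with RNase A and T1 alone (RNase-only), RNA digested after incubation with recombinant MDA5 that lacks its CARD domains (MDA5-protected) and undigested RNA (input). The study describes its replicates as biological triplicates, while the labels name no animals, and p-values measure the spread between these libraries.

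RNase A and RNase T1 cut single-stranded RNA, so the RNA that outlasts a digest is held in base pairs, is bound by protein or escaped cutting. A 3′ UTR is the stretch between the stop codon and the poly(A) tail, and it ends shortly after a polyadenylation signal, usually AATAAA or ATTAAA in the DNA letters of the annotation. In mammals 3′ UTRs often carry repeats in opposite orientation, which fold back into double-stranded RNA that MDA5 can bind and ADAR1 can edit. Transcripts of liver parenchyma, such as *Alb*, are among the most abundant in total liver RNA, whereas genes such as *Muc13* and *Cdx1* are known from the epithelium of the gut.

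The sequences below are the ends of 6 UTRs whose regions were among the strongest, chosen because peaks covered the polyadenylation signal. They are 30-base stretches of GRCm38 transcripts, written 5′ to 3′ on the transcribed strand, with the signal in capitals. The *Car1* stretch also holds another AATAAA, left in lower case, upstream of the marked signal.
Muc13: aggcaatgctttAATAAAatatatttggtg
Gpa33: tgtttctttatcAATAAAgttactggtgga
Car1: tttaaataaaccAATAAAatggctttacct
Gpx2: gctttagagtccAATAAAgtgtaggtgtgg
Oit1: tacttgagcagaATTAAAttctatttttgc
Pigr: tgtccattaataATTAAAgtctatgattgc
The stretches lie at 16:33819898-33819927 (+) for *Muc13*, 1:166166475-166166504 (+) for *Gpa33*, 3:14766218-14766247 (-) for *Car1*, 12:76792340-76792369 (-) for *Gpx2*, 14:8348951-8348980 (-) for *Oit1* and 1:130852214-130852243 (+) for *Pigr*. The signal was inside a peak in 6 of 6 RNase-only libraries for *Gpa33*, *Gpx2*, *Oit1* and *Pigr*, and in 5 of 6 for *Muc13* and *Car1*. The signals of *Klf4*, *Clca1* and *Tspan1*, also strong regions, were covered in no library. Counted from the stop codon, the median summit lay at 17.3% of the UTR for *Muc13*, 15.4% for *Car1* and 32.8% for *Gpx2*. It lay at 89.7% for *Gpa33*, 69.2% for *Oit1* and 58.6% for *Pigr*.

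The libraries differed in how many such peaks they held. Adar-/-;Mavs-/- replicates 1, 2 and 3 had 2057, 1439 and 1149 3′ UTR peaks, and Mavs-/- replicates 1, 2 and 3 had 1573, 1360 and 428. These were 35.5%, 23.6% and 20.5% of the peaks of the former libraries and 28.2%, 35.5% and 13.6% of those of the latter. Mavs-/- replicate 3 stood apart with the fewest 3′ UTR peaks and the largest share of intergenic peaks (44%), and Adar-/-;Mavs-/- replicate 1 with the most 3′ UTR peaks and the smallest share of intronic peaks (14.5%, against 24.3% to 39.8% elsewhere). The mean number was 1548 ± 464 in Adar-/-;Mavs-/- and 1120 ± 609 in Mavs-/- (SD, n = 3 each), and the groups overlapped (difference of 428, two-sided exact permutation test, p = 0.5, where 3 against 3 cannot go below 0.1). Without Mavs-/- replicate 3 the difference was 81.8, at a minimum AUC of 1000 it was 118, and with equal numbers of strongest peaks per library 37.7. The share differed by 0.742 percentage points (exact permutation p = 1), and it changed sign when either Adar-/-;Mavs-/- replicate 1 (-3.73) or Mavs-/- replicate 3 (-5.36) was left out.

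**Figure D1:**
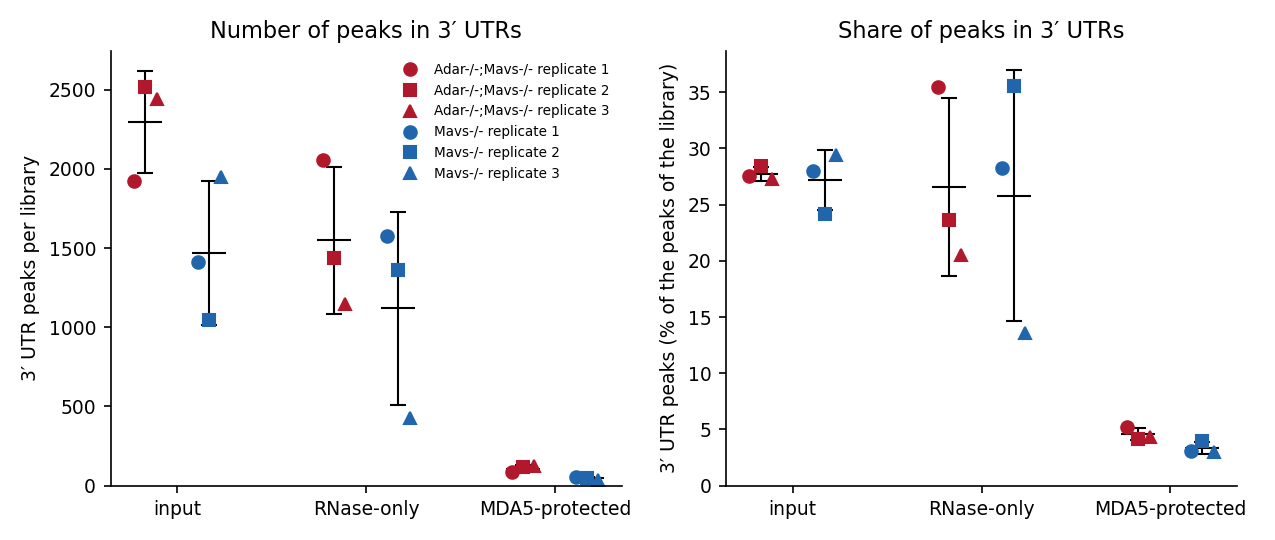
Number (left) and share (right, % of the peaks of the library) of 3′ UTR peaks in the 3 fractions, with a point per library, a bar for the mean and whiskers for the SD (n = 3). RNase-only shares ran from 13.6% to 35.5%, near the 24.2% to 29.4% of input and above the 2.97% to 5.2% of the MDA5-protected libraries.

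The 3′ UTR was far better represented in the RNase-only than in the MDA5-protected fraction. MDA5-protected libraries held 35 to 125 peaks of this kind, and the share was higher in the RNase-only library of each of the 6 same-numbered pairs, by 22.2 percentage points on average (SD 8.26, exact sign-flip permutation test over 6 libraries, two-sided, p = 0.031, the smallest it can give, adjusted p = 0.0402 over 9 comparisons). Against input the mean difference was -1.29 points (SD 10, exact sign-flip p = 0.781), with 3 of the 6 libraries higher. It turned to 2.69 with at least 50% of the peak in the UTR, 4.86 with the summit there and 9.77 without peaks that touch a coding sequence. Input peaks reached into the UTR from the coding sequence more often. Of the RNase-only 3′ UTR peaks, 23.1% to 35.7% also touched a coding sequence, against 59.7% to 76.6% of input 3′ UTR peaks, and 71.8% lay wholly inside UTR bases.

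The peaks fell in 2590 genes, which is 12.3% of the 21045 protein-coding genes with an annotated 3′ UTR, 1454 genes (6.91%) had one in 2 or more libraries, and 199 genes (0.946%) had one in all 6. Of the 2590 genes, 1386 had no input peak on any exon in any of the 6 input libraries. An input 3′ UTR peak, a narrower criterion than an input peak on any exon, was found in 14.3% of all 21045 genes. The share of all genes without an input peak on an exon was not counted, so no preference for such genes is read from these numbers. Genes without an input peak on an exon carried 51.2% to 65.5% of the 3′ UTR peaks of a library. Digested libraries were called against input, so a transcript that is abundant in input has to exceed it to give a peak. Within a library these peaks also ranked higher by area under the significance curve (AUC, the deposited strength of a peak), with a median percentile of 55.5 to 68.7 in genes without an input peak and 46.1 to 51.1 in genes with one. The median rank of all 3′ UTR peaks lay 5.69 percentiles above that of the other RNase-only peaks (exact sign-flip permutation over 6 libraries, p = 0.031, adjusted p = 0.0402, higher in 6 of 6). The difference was not detected in genes with an input peak (-0.0345) or without the peaks that touch a coding sequence (0.588, p = 0.406 in an exact test). A higher rank was also seen in input, with medians of 55.8 to 60 for 3′ UTR peaks and 46.7 to 48.1 for other peaks. In the MDA5-protected libraries the medians were 41.6 to 54.5 and 49.8 to 50.6. AUC is an area, and the part of peak length in these ranks was not tested.

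Merged over the 6 libraries the peaks formed 3344 regions with a median length of 277 nt, of which 191 (5.71%) were found in all 6, against 3.49% of all 13882 RNase-only regions. Without Mavs-/- replicate 3 the other 5 libraries shared 325, and 76 regions of all 6 were counted when peaks that touch a coding sequence were left out. The 10 regions of all 6 libraries with the highest mean rank lay in *Muc13*, *Gpa33*, *Klf4*, *Tmem45b*, *Cdx1*, *Car1*, *Gpx2*, *Clca1*, *Tspan1* and *Oit1*. Of these regions only that of *Muc13* touched no coding sequence. Some were longer than the UTR, such as that of *Gpx2* with 676 nt over a UTR of 315 nt. Their ranks are thus not those of UTR bases alone. None of the 10 genes had an input peak on an exon. *Muc13* encodes a membrane mucin of the intestinal surface, *Gpa33* the A33 antigen of intestinal epithelium, *Cdx1* a homeobox factor of intestinal identity, *Gpx2* the glutathione peroxidase of the gastrointestinal tract and *Clca1* a protein secreted by goblet cells. *Klf4* encodes a transcription factor of differentiating epithelia, and *Car1* a carbonic anhydrase of colon epithelium that red cells also contain.

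The *Muc13* region (16:33818872-33820003, +, 1132 nt, over a UTR of 1060 nt) had its strongest peak at an AUC of 8081, 7678 and 5635 in Adar-/-;Mavs-/- replicates 1 to 3 and of 8216, 3384 and 4374 in Mavs-/- replicates 1 to 3. Their ranks, as percentiles of AUC within a library, ran from 97.9 to 99.6, and the genotypes overlapped. The *Gpa33* region (1:166165147-166166505, +, 1359 nt) had values of 6479, 7029 and 3671 in the former and 7062, 6393 and 2109 in the latter genotype, and it also reached the coding sequence. The *Car1* region (3:14766216-14766660, -, 445 nt) had 4656, 5337 and 4177 in the former and 4439, 3459 and 2874 in the latter. AUC grows with depth, and in each of the 3 genes Mavs-/- replicate 3 or 2 had the lowest value, so ranks within a library were used to compare regions. The *Gpx2* region (12:76792332-76793007, -, 676 nt) had ranks of 99.1, 99.2 and 99.1 in Adar-/-;Mavs-/- and 98.9, 99 and 97 in Mavs-/-. The other 6 regions had ranks between 96.2 and 99.6 in every library.

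**Figure D2:**
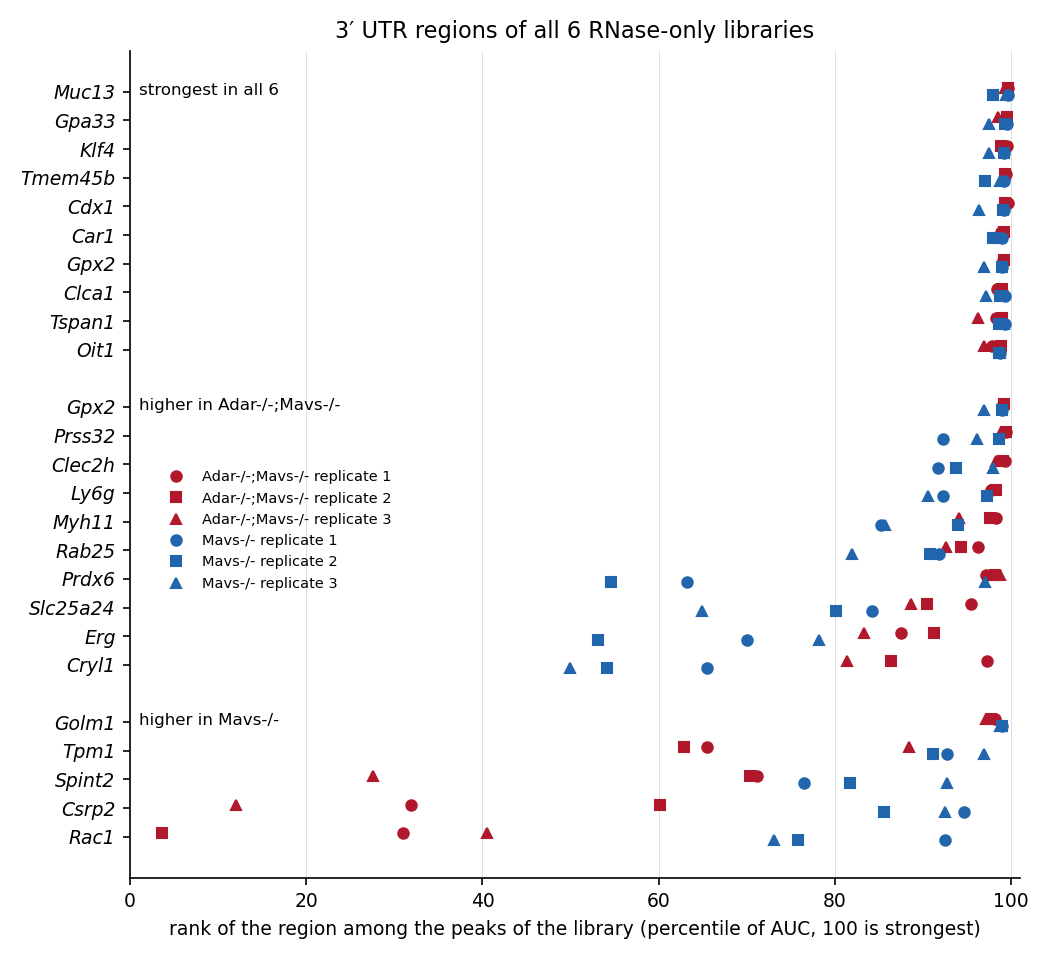
Rank of 3′ UTR regions in each RNase-only library (percentile of AUC among the peaks of the library, 100 being the strongest). The 10 strongest regions sit between 96.2 and 99.6 in all 6 libraries, and the lower blocks give the 10 regions that ranked higher in every Adar-/-;Mavs-/- library and the 5 that ranked higher in every Mavs-/- library.

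The 3 longest regions of all 6 libraries lay in *B3galt5* (16:96315829-96319859, +), *Mxd1* (6:86647072-86651102, -) and *Mgat4a* (1:37439344-37442564, -). They measured 4031, 4031 and 3221 nt. *B3galt5* and *Mgat4a* encode glycosyltransferases and *Mxd1* a partner of MAX that opposes MYC. Each was covered by several peaks in most libraries, with 2 to 6 in *B3galt5*, 1 to 9 in *Mxd1* and 1 to 5 in *Mgat4a*, and Mavs-/- replicate 3 ranked lowest in each (75.6, 54 and 28.9). The most separate regions in a single UTR were found in *Ccnd2*, the gene of cyclin D2, with 9 regions over its UTR of 5173 nt. Only 2 of the 9 were shared by 4 or more libraries, and both lay near the end, with median summit positions of 98.6% and 90.5% of the UTR. *Mgat4a*, *Parm1* and *Slc26a2* had 6 regions each.

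Lists of marker genes were then counted by fraction. The list of 30 genes of intestinal epithelium was written after the leading regions had been seen, so its counts describe these libraries and carry no test. Of its 30 genes, 19, 17 and 17 had a 3′ UTR peak in RNase-only replicates 1 to 3 of Adar-/-;Mavs-/- and 19, 18 and 17 in those of Mavs-/-. In input the same list gave 1, 1 and 2 genes in the former and 1, 0 and 1 in the latter genotype. In all, 20 of the 30 (66.7%, against 12.3% of all genes) had a peak, and 16 had one in all 6 libraries. The mean of 17.8 genes per RNase-only library became 4.33 when peaks that touch a coding sequence were left out. Among them were *Vil1* (villin of the brush border), with ranks of 97.6, 97.1 and 96.8 in Adar-/-;Mavs-/- and 96.8, 96.8 and 94.3 in Mavs-/-, and *Cdh17* (intestinal cadherin), with 99.1, 98.8 and 97.8 against 94.5, 98.3 and 89.2. *Muc2*, *Fcgbp*, *Agr2*, *Zg16* and *Clca1* of goblet cells and *Slc26a3*, *Car4* and *Krt20* of surface enterocytes of the colon were also found in all 6. *Alpi*, *Fabp2*, *Fabp6*, *Lct* and *Sis* of absorptive cells of the small intestine, *Lyz1* of Paneth cells and *Lgr5*, *Ascl2* and *Olfm4* of stem cells had no 3′ UTR peak in any RNase-only library, and neither had *Guca2b*, which encodes uroguanylin. *Rbp2*, a retinol-binding protein gene of absorptive cells of the small intestine, had one in Mavs-/- replicate 1 at a rank of 1.62.

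Hepatocyte markers were more often found in input. All 8 of them (*Alb*, *Ttr*, *Apoa1*, *Apob*, *Cps1*, *Pck1*, *Hnf4a* and *Tat*) had a 3′ UTR peak in 1 or more input libraries (6, 7 and 8 of them in Adar-/-;Mavs-/- and 8 in each Mavs-/- library), so the input carried the defining transcripts of the labelled tissue. The mean of 7.5 markers per input library became 1.5 when peaks that touch a coding sequence were left out. In the RNase-only libraries only *Hnf4a* had one, in Mavs-/- replicate 1 at a rank of 24.4. None of 8 markers of erythroid cells, 8 of Kupffer cells and 8 of sinusoidal endothelium had one, against 12.3% of all genes, a share at which lists of this size hold few such genes. Markers of bile duct cells did, with 4, 4 and 3 of 6 in replicates 1 to 3 of each genotype, against 0 to 1 in input. Their mean of 3.67 genes per RNase-only library became 0.167 without peaks that touch a coding sequence. These were *Epcam*, *Krt19*, *Krt7* and *Cldn7*, which gut epithelium also expresses. Of 8 stellate cell markers 2 to 4 had a peak per RNase-only library (*Des*, *Dcn*, *Col3a1* and *Col1a1*) and 1 to 4 per input library. Where the RNA of intestinal genes in these liver libraries came from was not tested, and in bulk RNA fewer cells of a type cannot be told apart from less RNA per cell. The part of these genes in the differences between RNase-only and input libraries, such as share, position, length and GC content, was not tested either.

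**Figure D3:**
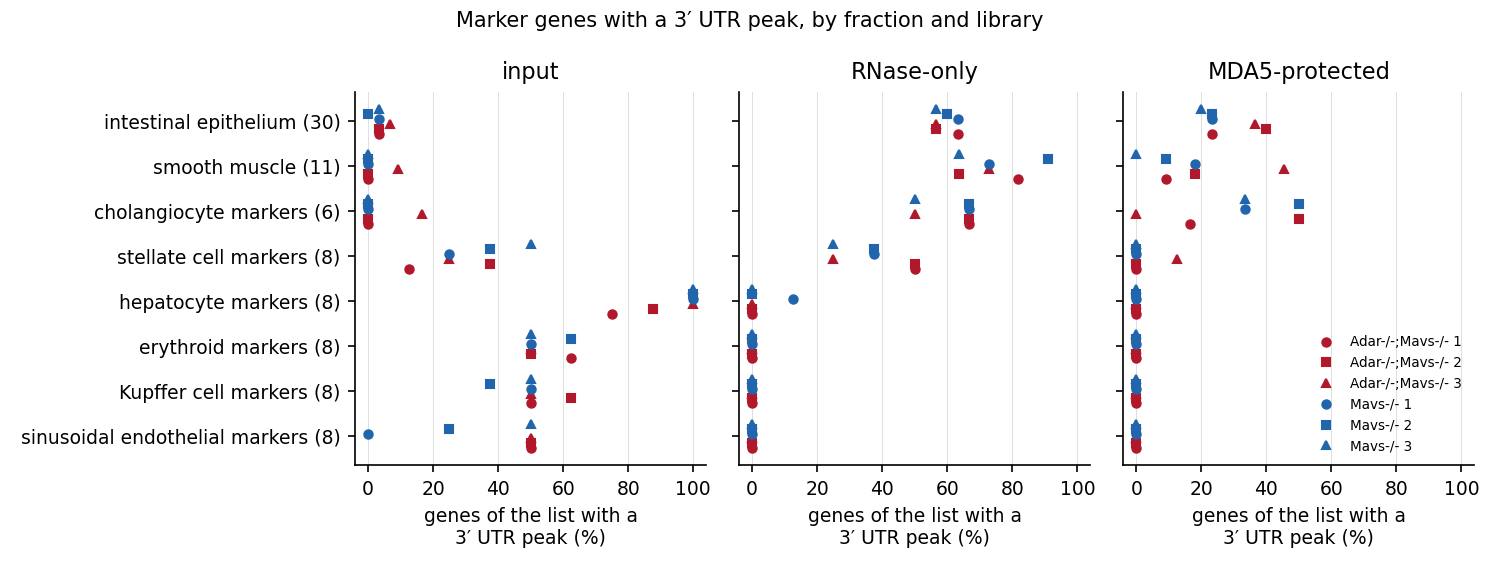
Share of the genes of each marker list (%, list size in brackets) with a 3′ UTR peak in each library of the 3 fractions. Of 30 intestinal genes 0 to 2 had a peak in an input library and 17 to 19 in an RNase-only library, while of 8 hepatocyte markers 6 to 8 had one in input and 0 to 1 in RNase-only libraries.

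Gene groups of liver function differed among themselves, against 12.3% of all genes with a peak in any RNase-only library. A list of 15 serpin genes, 18 complement genes and 23 genes of the urea cycle and amino acid breakdown had no 3′ UTR peak in any RNase-only library, although 15, 15 and 20 of them had one in input. Of 23 genes of secreted carriers and lipid transport only *Scp2*, a sterol carrier gene, had a peak (3 libraries), of 18 coagulation genes only *F10* (1 library) and of 21 cytochrome P450 genes only *Cyp3a13* (2 libraries). Of 19 genes of fatty acid oxidation 4 (21.1%) had one, led by *Slc25a20*, the carnitine-acylcarnitine carrier, in 4 libraries at a mean rank of 50.9, and by *Acadl*, a long-chain acyl-CoA dehydrogenase, in 3. Iron genes with a peak (3 of 12, 25%) were *Tfrc*, *Fth1* and *Slc40a1*, in 2 libraries each, and of the growth hormone and IGF axis *Socs2* and *Jak2*, in 1 each.

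Cytosolic ribosomal protein genes had peaks in 18 of 28 cases (64.3%, against 12.3% of all genes), with 3 to 9 genes per library and none in all 6. *Rpl18* and *Rps29* were found in 4 libraries each, at mean ranks of 25.3 and 47.5. Reads of these genes can be shared with processed pseudogenes, so their peaks are uncertain. Among 30 interferon-stimulated and double-stranded RNA sensor genes 7 (23.3%) had a peak. *Eif2ak2*, which encodes the kinase PKR, was found in 3 and *Ifih1*, which encodes MDA5, in 4. Of 24 genes for RNA decay and 3′ UTR binding proteins 8 (33.3%) had a peak, with *Pabpc1*, the cytoplasmic poly(A)-binding protein, in 5 libraries and *Zfp36l2* and *Elavl1*, binders of AU-rich elements, in 3 each.

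Within the UTR the peaks lay towards the 3′ end. On a scale from 0 at the stop codon to 100 at the annotated end, the median summit stood at 65.5, 59.6 and 59.4 in Adar-/-;Mavs-/- replicates 1 to 3 and at 59, 62.9 and 56.7 in Mavs-/- replicates 1 to 3. Input 3′ UTR peaks had medians of 30.5 to 33.7. RNase-only peaks were thus placed 27.5 points further along in the mean (SD 3.8, higher in 6 of 6 libraries, exact sign-flip permutation test, two-sided, p = 0.031, adjusted p = 0.0402). Digested libraries were called against input and input libraries without a control, so places strong in input were less likely to give an RNase-only peak. The part of this in the difference was not tested. The same limit holds for the other comparisons with input. With the UTR split into 10 equal bins, the last bin held 15.8% ± 2.56 of the RNase-only summits and 1.71% ± 0.27 of the input summits (SD, n = 6), and the first bin 9.35% ± 1.52 against 21.5% ± 2.01. The summit was in the UTR for 7336 of the 8006 peaks. The genotypes differed by 1.99 points (exact permutation p = 0.5), and by -0.00898 without Adar-/-;Mavs-/- replicate 1.

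**Figure D4:**
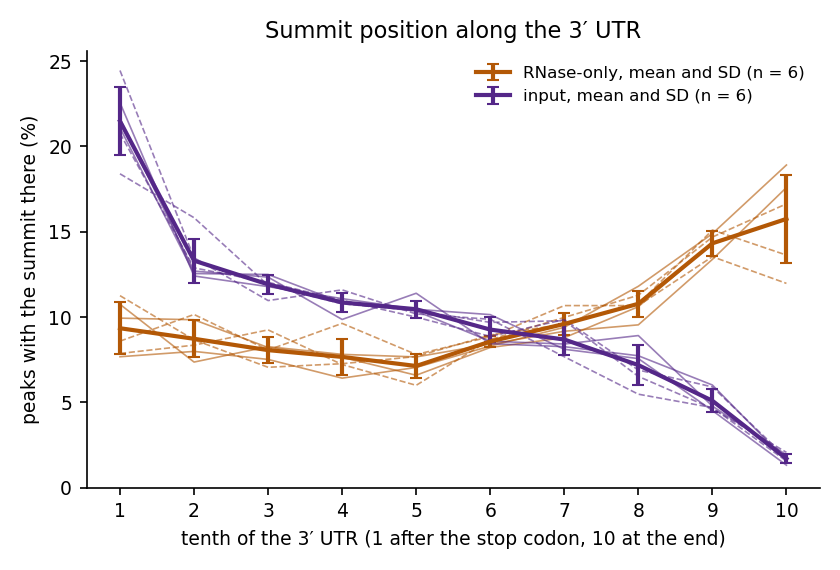
Share of peaks (%) with their summit in each of 10 equal bins of the 3′ UTR, for the 6 RNase-only and the 6 input libraries. Thin lines are libraries (solid for Adar-/-;Mavs-/-, dashed for Mavs-/-), thick lines with whiskers the mean and SD. The last bin held 15.8% of RNase-only and 1.71% of input summits.

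Many peaks ended at the annotated end itself. Between 36.6% and 42.8% of the RNase-only 3′ UTR peaks reached within 50 nt of it, against 14.1% to 26.8% of input 3′ UTR peaks, a distance chosen after the positions had been seen. Of the MDA5-protected 3′ UTR peaks 32.8% to 44.3% did so, and reaching the end was thus not particular to the RNase-only fraction. An AATAAA or ATTAAA in the last 40 nt of the UTR stood in 81.2% to 86.1% of the peaks that reached the end, in 78.7% to 82.5% of the input peaks that did, and in 64.4% of all 43331 annotated 3′ UTRs of at least 40 nt. The motifs were searched on the transcribed strand only, since the signal acts in RNA. Not every leading region reached the end. The *Klf4* (4:55527289-55528304, -), *Clca1* (3:145004241-145005089, -) and *Tspan1* (4:116162528-116163037, -) regions did not come within 50 nt of it.

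The 3′ UTR peaks were longer than the rest of the RNase-only peaks and shorter than input peaks. Their median length was 233, 228 and 276 nt in Adar-/-;Mavs-/- and 236, 282 and 274 nt in Mavs-/-, against 137 to 173 nt for other RNase-only peaks of the same libraries. The difference was 99.7 nt on average (SD 15, longer in 6 of 6, exact sign-flip permutation test, p = 0.031, adjusted p = 0.0402). Under settings other than leaving out a library it ran from 65.8 to 151 nt. Input 3′ UTR peaks, which were called without a control, had medians of 438 to 616.5 nt, against 222 to 268 nt for other input peaks. MDA5-protected 3′ UTR peaks had medians of 222.5 to 262 nt, against 126 to 212 nt for other MDA5-protected peaks. Greater length in 3′ UTRs was thus not particular to the RNase-only fraction. Between genotypes the median differed by -18.2 nt (Adar-/-;Mavs-/- minus Mavs-/-, exact permutation p = 0.3).

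Their sequence was poorer in G and C than that of input 3′ UTR peaks. The median GC content of the UTR bases under a peak was 40.6%, 42.4% and 42.3% in Adar-/-;Mavs-/- and 43.2%, 43% and 44.1% in Mavs-/-, against 49.5% to 51.7% in input. The mean difference was -8.46 percentage points (SD 1.64, lower in 6 of 6, exact sign-flip permutation p = 0.031, adjusted p = 0.0402). The part of calling the digested libraries against input in this difference was not tested. T was the most frequent base in every RNase-only library (29.1% to 31.1%), followed by A (26.6% to 27.7%).

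The UTR around the summit was not predicted to fold more stably than its surroundings. The minimum folding energy of a window around the summit, less that of flanking windows of the same size centred 202 nt away in the same UTR, had a median of 1.3 kcal/mol in each of the 3 Adar-/-;Mavs-/- libraries and of 1.25, 0.9 and 0.55 kcal/mol in Mavs-/- replicates 1 to 3. Positive values mean a less stable fold. The mean over libraries was 1.1 kcal/mol (SD 0.311, above 0 in 6 of 6, exact sign-flip permutation p = 0.031, adjusted p = 0.0402). For input 3′ UTR peaks the medians ran from -1.98 to -1.33. The GC content of the summit window differed from that of the flanks by a median of -0.99 to 1.49 points in the RNase-only and of 3.96 to 4.95 points in the input libraries. It was 0 in 4 of the 6 RNase-only libraries, and its part in the folding difference was not tested.

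Inverted repeats were rare under these peaks. Arms of at least 70 nt with at least 70% identity to a reverse-complementary stretch of the same UTR were present in 66 of the 5695 UTRs searched. They were touched by 7 of the 8006 peaks, or 0.0486% to 0.234% of a library, against 0.0956% to 0.311% of input 3′ UTR peaks and 1.18% to 6.25% of the few MDA5-protected 3′ UTR peaks (1 to 6 peaks per library), the latter compared without a test (mean difference from input of -0.099 points, exact sign-flip permutation p = 0.156). The 7 peaks formed 5 regions, in *Knl1*, *Slfn5*, *Zfp738*, *Rwdd2b* and *Mier1*, and none was found in more than 2 libraries. *Knl1*, a kinetochore scaffold gene that the study cloned for its MDA5 assays, had its region at 2:119104348-119104481 (+), 134 nt long. It was present in Mavs-/- replicates 2 and 3, at ranks of 69.4 and 32.3, in no Adar-/-;Mavs-/- library, and under an MDA5-protected peak in 2 Mavs-/- libraries. *Slfn5*, a Schlafen family gene, had a region at 11:82963207-82963383 (+) in Adar-/-;Mavs-/- replicates 2 and 3, at ranks of 4.23 and 7.33, and in no Mavs-/- library. The longest unbroken pairing stretch of each is shown 5′ to 3′ on the transcribed strand, all of it in capitals because each base faces its complement in the other arm.
Knl1, arm under the peak: AGGCCAGCCTGGTCTACA
Knl1, facing arm: TGTAGACCAGGCTGGCCT
Slfn5, arm under the peak: AGGCAGAGGCAGGTGGAT
Slfn5, facing arm: ATCCACCTGCCTCTGCCT
These are 18-base stretches at 2:119104388-119104405 and 2:119104890-119104907 for *Knl1*, and at 11:82963231-82963248 and 11:82962621-82962638 for *Slfn5*. The whole arms aligned over 164 and 114 nt with 84.8% and 86.8% identity. *Rnf168*, *Zkscan3*, *Adar* and *Mavs* had no RNase-only 3′ UTR peak. *Adar* itself had 2 RNase-only peaks elsewhere in the gene, both in Adar-/-;Mavs-/- replicate 2, and 1 input peak in each of Adar-/-;Mavs-/- replicates 2 and 3, and *Mavs* was without a peak in all 18 lists, so these lists cannot be used to check the genotypes.

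Few 3′ UTR peaks were overlapped by an MDA5-protected peak. The MDA5-protected RNA was digested with the same RNases, and the study subtracted RNase-only peaks from the MDA5-protected ones as background. An overlap therefore cannot tell protection by MDA5 from RNase resistance without it. An MDA5-protected peak of the same genotype and replicate number overlapped 3.31%, 6.05% and 9.49% of them in Adar-/-;Mavs-/- replicates 1 to 3 and 2.73%, 3.01% and 7.01% in Mavs-/- replicates 1 to 3. Of the other RNase-only peaks 9.01%, 30.2% and 33.1% were overlapped in the former and 26.2%, 26.1% and 20.4% in the latter genotype. The 3′ UTR share was lower in 6 of 6 libraries, by 18.9 points on average (SD 7.65, exact sign-flip permutation test, two-sided, p = 0.031, adjusted p = 0.0402), and least so in Adar-/-;Mavs-/- replicate 1. MDA5-protected libraries held only 35 to 125 3′ UTR peaks, against 428 to 2057 in RNase-only libraries, which bounds this overlap. The test therefore cannot be separated from the low share of 3′ UTR peaks in the MDA5-protected fraction. How many MDA5-protected 3′ UTR peaks lay on an RNase-only peak was not counted, so no avoidance of these sites is read from it. Between genotypes the overlap differed by 2.03 points (exact permutation p = 0.5).

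**Figure D5:**
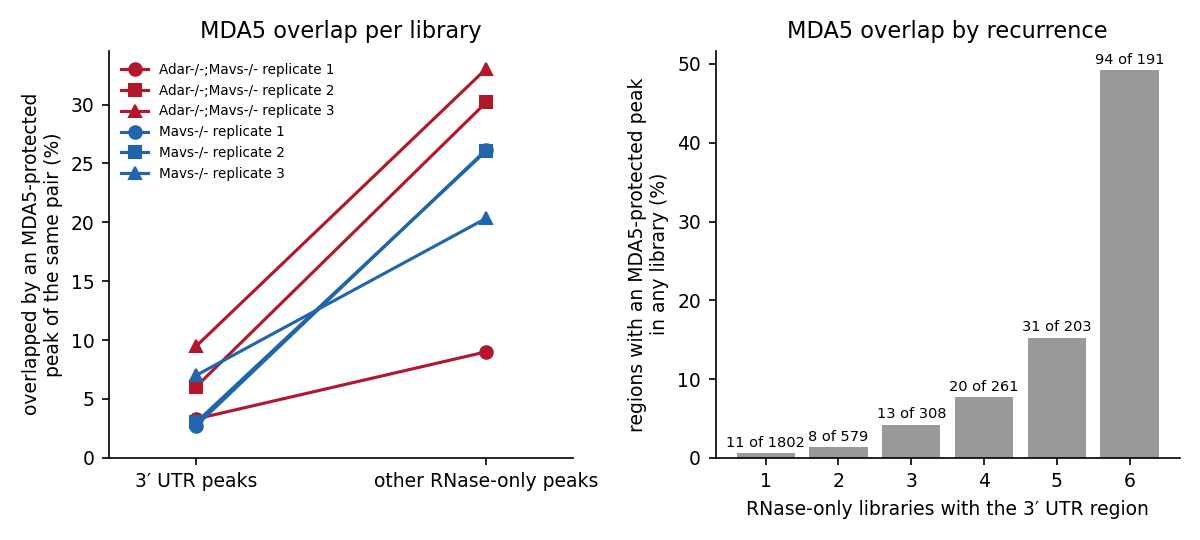
Left, share (%) of 3′ UTR peaks and of other RNase-only peaks that an MDA5-protected peak of the same genotype and replicate number overlaps, with a line per library, from 2.73% to 9.49% and from 9.01% to 33.1%. Right, share (%) of 3′ UTR regions with an MDA5-protected peak in any of the 6 libraries, by the number of RNase-only libraries that hold the region, from 0.61% of regions in 1 library to 49.2% of regions in 6.

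Overlap with MDA5-protected peaks was more frequent among regions found in more libraries, a description without a test. Of the 1802 regions found in 1 RNase-only library 11 (0.61%) were overlapped in any of the 6 MDA5-protected libraries, of the 261 found in 4 libraries 20 (7.66%), and of the 191 found in all 6 libraries 94 (49.2%). Regions of more libraries were also longer, with a median of 225 nt for 1 library and 690 nt for 6, and ranked higher (median mean rank of 30.1 and 86.6). Of all 177 overlapped regions 111 were overlapped in Adar-/-;Mavs-/- libraries only, 11 in Mavs-/- libraries only and 55 in both. The Adar-/-;Mavs-/- MDA5-protected lists were also longer in 2 of 3 replicates, with 1636, 2768 and 2868 peaks against 1829, 1220 and 1180. Neither the split by genotype nor the rise with recurrence was set against all RNase-only regions. The split is therefore not read as a genotype difference, and neither is read as particular to 3′ UTRs.

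The regions with an MDA5-protected peak in all 6 libraries numbered 9 of 3344, a share not counted over all RNase-only regions, and 7 of them were in all 6 RNase-only libraries. These 7 lay in *Car1*, *Oit1*, *Tspan1*, *Muc13*, *Ckmt1*, *Pigr* and *Guca2a*. *Ckmt1* encodes the ubiquitous mitochondrial creatine kinase, *Pigr* the receptor that carries IgA across epithelia and *Guca2a* guanylin. The *Muc13* region ranked at 71.3, 96.2 and 94.4 among the MDA5-protected peaks of Adar-/-;Mavs-/- and at 41.6, 38 and 82 among those of Mavs-/-. The *Ckmt1* region (2:121363496-121363738, +, 243 nt) ranked at 94, 97 and 90.4 among the RNase-only peaks of the former and at 97.8, 94.4 and 96.9 among those of the latter genotype. *Pigr* (1:130850800-130852253, +, 1454 nt) was the only one of the 7 genes with an input peak on an exon.

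Regions held by only 1 genotype were few. In all 3 Adar-/-;Mavs-/- and no Mavs-/- library stood 27 regions (0.807% of 3344, against 1.73% of all RNase-only regions), and in all 3 Mavs-/- and no Adar-/-;Mavs-/- library 5 (0.15%, against 0.288%). Both shares were below those of RNase-only regions at large. The strongest of the former were in *Hao2*, a peroxisomal hydroxyacid oxidase gene (3:98874518-98875322, -, ranks of 97.4, 96.8 and 89.9), *Pycard*, the inflammasome adaptor gene (7:127992659-127992968, -, 76.7, 93.6 and 91.9), *Dio1*, a thyroid hormone deiodinase gene (4:107291612-107292424, -, 97.3, 78 and 51.8), *Psma1*, *Src* and *Tmem171*. The *Hao2* and *Dio1* regions were also overlapped by an input peak, in 2 and 1 Mavs-/- libraries. The *Pycard* region had its summit outside the UTR. The 5 of Mavs-/- lay in *Slc25a3*, the mitochondrial phosphate carrier gene (10:91116645-91117024, -, ranks of 70.4, 68 and 66.8), *Cisd3*, *Rpl14*, *Slc35g1* and *Csrp1*. Input peaks overlapped 4 of these 5, *Slc25a3* in 6 libraries, *Rpl14* and *Csrp1* in 2 each and *Cisd3* in 1, and the *Cisd3* region had its summit outside the UTR. Without Mavs-/- replicate 3, whose list was the shortest, the 2 remaining Mavs-/- libraries shared 68 regions that no Adar-/-;Mavs-/- library had, and 29 regions stood in all 3 Adar-/-;Mavs-/- libraries only. Leaving out any of the other 5 libraries gave 57 to 98 regions for Adar-/-;Mavs-/- and 8 to 16 for Mavs-/-, since fewer libraries then had to share or lack a region.

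Among the 191 regions of all 6 libraries, 10 (5.24%, against 10.1% of the 485 RNase-only regions of all 6) ranked higher in every Adar-/-;Mavs-/- than in any Mavs-/- library, and 5 (2.62%, against 2.89%) the other way. The widest gap of the 10 lay in *Cryl1*, a crystallin lambda gene (14:57275042-57275564, -), with ranks of 97.3, 86.4 and 81.4 in Adar-/-;Mavs-/- and 65.5, 54.1 and 49.9 in Mavs-/-. *Erg*, an ETS factor gene (16:95359784-95359994, -), had 87.5, 91.2 and 83.3 against 70, 53.1 and 78.2. *Gpx2*, *Prss32*, *Clec2h*, *Ly6g*, *Myh11*, *Rab25*, *Prdx6* and *Slc25a24* were the others. The 5 that ranked higher in Mavs-/- were *Rac1*, the gene of a small GTPase (5:143506492-143506983, -, ranks of 31, 3.6 and 40.5 in Adar-/-;Mavs-/- and 92.5, 75.8 and 73.1 in Mavs-/-), *Csrp2* (10:110939209-110939593, +, 31.8, 60.2 and 12.1 against 94.7, 85.6 and 92.5), *Spint2*, *Tpm1* and *Golm1*. These shares are near or below the background, and no test over regions was made. With 1 library left out at a time the counts were 19 to 39 and 7 to 20.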

How the data were processed

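All 18 peak lists were used, with samples assigned to genotype and fraction from their labels. Reads had been trimmed by the authors (Trim Galore 0.6.6), mapped to GRCm38 (mm10) with NextGenMap and turned into peaks strand by strand with Genrich 0.6.1 (adjusted p of at most 0.01, AUC of at least 500, gaps of up to 20 bp). The digested libraries had input as their control, the input libraries had none, and each replicate has its own list. The peak score and the AUC deposited by the authors grow with depth. AUC was compared between regions as ranks within a library, printed as such for 3 regions, and used as a threshold in 1 alternative. The deposited −log10 p-values and −log10 adjusted p-values are those of Genrich at the summit. The study gives approximate sequencing depths, lower for digested than for input libraries, but these lists hold no reads per peak, and no depth was used here.

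GENCODE M21 gave the UTRs, with the stop codon left out. Overlapping peaks on a strand were merged into regions, and a region's rank in a library is the highest AUC percentile of its peaks. Positions refer to the transcript of a gene whose UTR the peak overlaps most. Arms came from blastn 2.17.0 of each UTR against itself (word size 11, UTRs of up to 30000 nt) and energies from ViennaRNA 2.7.2. For genotypes, exact permutation tests (two-sided) were run over 3 against 3 libraries for 6 comparisons, and for fractions or peak classes, exact sign-flip tests (two-sided) over 6 libraries for 9 comparisons. P-values were adjusted by Benjamini-Hochberg within each family. The Clopper-Pearson 95% intervals of the shares were computed and cover counting error only. Alternatives changed the membership rule, peak threshold, annotation, strand, overlap, windows and libraries. The sign-flip tests across fractions pair libraries by genotype and replicate number. Over regions present in both fractions (rank 0 where a library lacked one), deviations of RNase-only ranks from their group mean correlated with those of the same-numbered MDA5-protected library in every pair (r = 0.311 to 0.498 in 6 pairs), but not positively with those of the same-numbered input (r = -0.255 to -0.103). The steps were tested on simulated data.

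The named regions were the 10 with the highest mean rank and the 3 longest among those of all 6 libraries, up to 6 per genotype-only set, up to 6 with MDA5-protected peaks in all libraries, the 3 UTRs with the most regions, up to 4 members per gene list, and the genes the study cloned or deleted. Others are named after their values were seen, among them *Guca2a*, *Slc26a2*, *Slfn5*, *Zfp738*, *Rwdd2b*, *Mier1* and the regions whose ranks separate the genotypes. The members and lists were chosen with earlier results of these data known, and 8 tissue lists were added after the regions had been seen. One member of the interferon-stimulated list is not reported here.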

Additional observations from a re-analysis of the deposited data

How the results depend on the processing

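Of 284 recomputed values under settings other than leaving out a library, 242 counted as the same. A tested difference had to keep its direction and its side of the threshold, and a count of regions had to stay within 1.5 times. The mean number of marker genes per library had to move by no more than its SD over libraries. A minimum AUC of 1000 turned the difference in share between genotypes to -1.14, and the share against input turned to 2.69 with at least 50% of the peak in the UTR, 4.86 with the summit there and 9.77 without peaks that touch a coding sequence. Length between genotypes turned to 11.2 nt with equal numbers of strongest peaks and position to -0.93 in genes without an input peak. The arm difference from input turned to 0.0112 at 80% identity and 0.0624 by the middle base. The rank difference was 0.588 without peaks that touch a coding sequence (no longer past the threshold) and -0.0345 in genes with an input peak. Regions of all 6 libraries numbered 76 without peaks that touch a coding sequence, 68 at an AUC of 1000 and 47 in genes with an input peak. Adar-/-;Mavs-/- alone had 11 regions at an AUC of 1000, 9 with equal numbers, and 12 and 15 in genes with and without an input peak. Mavs-/- alone had 3 with at least 50% in the UTR, 3 by the summit, 3 without peaks that touch a coding sequence, 3 at an AUC of 1000, 11 with equal numbers and 1 in genes without an input peak. Ranks higher in Adar-/-;Mavs-/- numbered 2, 6 and 2 without such peaks, at an AUC of 1000 and with equal numbers, and ranks higher in Mavs-/- 3 and 1 under the first 2 of these. The settings by input peak were chosen after seeing the data, and the cause of these shifts was not tested.

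Leaving out each library in turn, the share between genotypes ran from -5.36 to 5.62, position from -0.00898 to 3.68 and arms from -0.0645 to 0.0288, each changing sign. Number ran from 81.8 to 654, MDA5 overlap from 0.423 to 3.51 and length from -33.3 to -9.08 nt. Over the fractions and peak classes the share ran from 20.3 to 24.5 against MDA5-protected and from -3.82 to 1.61 against input, MDA5 overlap from -21.5 to -17.8, length from 95.7 to 103 nt, position from 26.6 to 28.4, GC from -8.85 to -7.98, arms from -0.135 to -0.0662, folding from 1.06 to 1.21 and rank from 5.09 to 6.2. With 5 libraries the exact sign-flip test cannot pass 0.05. Regions of all libraries ran from 196 to 325, Adar-/-;Mavs-/- only from 29 to 98, Mavs-/- only from 8 to 68, and the rank groups from 19 to 39 and from 7 to 20.

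Same-numbered RNase-only libraries of the 2 genotypes did not deviate together (r = -0.087 to 0.0336 over 3 pairs). With a replicate block the genotype differences stayed at 428, 0.742, 2.03, -18.2, 1.99 and -0.0262, with exact p-values of 0.25 to 1, where 3 pairs cannot go below 0.25. With no replicate block the share against MDA5-protected (22.2), position (27.5) and GC (-8.46) against input each had an exact permutation p = 0.00216, the share against input (-1.29) p = 0.736 and arms (-0.099) p = 0.0584, and no call changed.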

Other observations

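Genes of smooth muscle were also found, on a list of 11 written after the regions had been seen. Of these, 9, 7 and 8 had a 3′ UTR peak in RNase-only replicates 1 to 3 of Adar-/-;Mavs-/- and 8, 10 and 7 in those of Mavs-/-, against 0 to 1 in input. A peak in any RNase-only library was found for 10 of the 11 (90.9%, against 12.3% of all genes). *Mylk* and *Tpm2* had one in 5 libraries, *Synm* in 2, *Smtn* in 1 and *Lmod1* in none. *Cnn1*, the gene of calponin, ranked at 98.8, 99.1 and 96.1 in Adar-/-;Mavs-/- and at 93.9, 92.2 and 98.3 in Mavs-/-, and *Tagln*, *Myh11*, *Acta2*, *Actg2* and *Des* were likewise in all 6 libraries. *Des* is also on the stellate cell list. Without peaks that touch a coding sequence the mean per library was 3.33 genes.

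Of 16 Hox genes of paralogue groups 9 to 13, also chosen after values were seen, 6 (37.5%, against 12.3% of all genes) had a peak. *Hoxb13* ranked at 99.1, 97.8 and 95.3 in Adar-/-;Mavs-/- and at 99, 97.6 and 98.4 in Mavs-/-, and *Hoxd13* was found in 5 libraries. None of 8 genes each of stomach, kidney and brain had a peak, 1 of 8 lung genes did (*Hopx*, 2 libraries) and 2 of 8 pancreas genes (*Cela1*, 5 libraries, and *Gcg*, 1). *Mptx1*, a mucosal pentraxin gene, had a region in 5 RNase-only libraries at ranks of 99.6, 99.7 and 99.4 in Adar-/-;Mavs-/- and 99.6 and 99.4 in Mavs-/- replicates 1 and 2, with MDA5-protected peaks in all 6 libraries.

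*Ifih1* encodes MDA5, the protein added to the MDA5-protected reactions. Its whole gene carried 14, 13 and 14 peaks in the MDA5-protected libraries of Adar-/-;Mavs-/- and 13, 14 and 13 in those of Mavs-/-. RNase-only libraries had 5, 1 and 2 and then 16, 0 and 2 peaks there, and input libraries 0. The 3′ UTR region at 2:62597691-62598090 (-) ranked between 96.2 and 98.8 in the 6 MDA5-protected libraries and between 31 and 83.5 in the 4 RNase-only libraries that held it. This region also touched the coding sequence, and its RNase-only summits lay outside the UTR. The source of this RNA was not tested.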
